A study of Mus musculus with 2 samples.

Results

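The guides described here are those with a near copy in the same library: 4420 of its 79633 guides have at least 1 other guide that differs at 1 to 3 of the 20 aligned bases, on the same strand and without a shift. They were chosen by sequence alone, so no read count entered the choice. They form 3251 pairs, of which 944 differ at 1 base, 999 at 2 and 1308 at 3. The library is Brie, a lentiviral collection of mouse knockout guides with blasticidin resistance as its marker. It was carried by bone marrow derived macrophages from R26-Cas9-KI mice, which make Cas9 from a knock-in, immortalised with the J2 retrovirus. All cells also carried the Tet3G transactivator and a doxycycline-inducible NT-GSDMD-tagBFP, the N-terminal part of gasdermin D joined to a blue fluorescent protein. The input library came from uninduced cells, and the survivor library from cells that had received doxycycline (0.5 μg/ml, 16 h) and were then collected by sorting for BFP signal without propidium iodide staining, which means that they made the fusion and still kept the dye out. Each condition is 1 library, so no comparison below has a replicate check and no test was possible. The intervals given cover 95% and treat reads or guides as independent draws, which guides in several pairs are not.

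A guide RNA leads Cas9 to DNA that matches its spacer and lies beside a short motif, the PAM. Mismatches in the bases next to the PAM usually disturb cutting more than mismatches far from it, which is why the PAM-proximal stretch is called the seed. Near-identical spacers arise in a genome-wide library mainly where genes have close copies, as the histone, vomeronasal receptor, defensin and keratin-associated protein families do. The N-terminal fragment of gasdermin D forms pores in the plasma membrane, and cells in which it acts die by pyroptosis. In the pooled assay each guide is read by sequencing, and its share among survivors is set against its share in the input.

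The first set is shown because its members could be placed in gene families. The deposited counts name guides by sequence only, so genes are named here only where the 20 bases followed by NGG, the PAM of Cas9, occur in a RefSeq window (GRCm38.p6) reaching from 250 bases before to 50 after a gene's start. Such a match describes the sequence and does not say which gene the guide was designed for. Capitals mark the positions that vary within the cluster, that is, among guides linked by pairs of 1 to 3 substitutions. The cluster that holds the guides matching H4c3 and H4c6, genes of histone H4, a core protein of the nucleosome, reads 5′ to 3′:
H4c3 guide: atgtcTggACgTggTaaGGG
H4c6 guide: atgtcTggTCgTggTaaGGG
Gm11335 guide: atgtcTggTCgTggCaaGGG
H4c3 cluster guide d: atgtcGggTCgCggCaaGGG
H4c3 cluster guide e: atgtcTggACgCggTaaGCA
H4c3 cluster guide f: atgtcTggCAgAggAaaGGG
H4c3 cluster guide g: atgtcTggCAgAggTaaGGG
H4c3 cluster guide h: atgtcTggTCgCggCaaGGG
H4c3 cluster guide i: atgtcTggTCgTggCaaAGG
The H4c3 guide matched chr13:23698430-23698449 on the minus strand, just after the gene's start. The H4c6 guide matched chr13:23551624-23551643, also on the minus strand and after the start. The Gm11335 guide matched chr13:23531115-23531134 on the plus strand, before the start of that gene model. Guides d to i had no match in these windows and are in the cluster by sequence alone. The last 17 bases of guide e are the first 17 of tctggacgcggTaagcaggg, a guide that lies 1 substitution from a guide matching the histone H2A genes H2ac13 and H2ac24, so its sequence goes with H2A.

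The vomeronasal type 1 receptor cluster holds guides for pheromone receptor genes of the Vmn1r family on chromosome 7, and it is shown because several of its guides match many gene copies:
Vmn1r125 guide: taaAtcCAtgaaaaccacTg
Vmn1r128 guide: taaAtcTGtgaaaaccacTg
Vmn1r169 guide: taaAtcTGtgaaaaccacAg
Vmn1r113 guide: taaCtcCCtgaaaaccacTg
Vmn1r cluster guide e: taaGtcGCtgaaaaccacTg
The Vmn1r125 guide matched chr7:21272193-21272212 on the plus strand. The Vmn1r128 guide matched 3 gene windows, the first at chr7:21349387-21349406 on the plus strand, and the others at Vmn1r135 and Vmn1r163. The Vmn1r169 guide matched 4 gene windows, the first at chr7:23577199-23577218 on the plus strand, the others at Vmn1r170, Vmn1r175 and Vmn1r176. The Vmn1r113 guide matched 6 gene windows, the first, that of Vmn1r241, at chr7:20205574-20205593 on the minus strand. The others were at Vmn1r113, Vmn1r117, Vmn1r245, Vmn1r251 and Vmn1r255. The matches given here by coordinates all lie after the start of the gene. Guide e had no match in these windows.

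The next set shows what a single substitution looks like in guides with many reads. These are the 3 pairs with the substitution at positions 1 to 10 (distal to the PAM) and the 3 with it at positions 11 to 20 (next to the PAM) that had the highest input in their lower guide. Positions are counted from 1 at the 5′ end. Each guide is named by its own base, the position and the base of its partner, and that base is the capital:
A4G: ctcAatcccacccaagccca
G4A: ctcGatcccacccaagccca
C10T: ctgaagatgCcatggctgtg
T10C: ctgaagatgTcatggctgtg
A8T: ccatgaaAgagaacccatgg
T8A: ccatgaaTgagaacccatgg
A19G: tgacttcacctgcaaccaAg
G19A: tgacttcacctgcaaccaGg
C16T: tggcaccctcatgagCggca
T16C: tggcaccctcatgagTggca
A17G: ggtggagcagactaagAcca
G17A: ggtggagcagactaagGcca
A further set shows, among pairs whose lower guide had 1000 input reads or more, the 3 pairs that lay furthest apart and the 2 that lay closest in survivors over input:
G13T: caacgtgagtgaGaccaacc
T13G: caacgtgagtgaTaccaacc
A15C: catgacttactttcAttcga
C15A: catgacttactttcCttcga
A7C: tggaggAtgctgcagctcag
C7A: tggaggCtgctgcagctcag
A20G: aggcaaagccagatgagcaA
G20A: aggcaaagccagatgagcaG
C18G: acaatgctcacaaggaaCcg
G18C: acaatgctcacaaggaaGcg

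The substitutions were not spread evenly over the guide. Of the 944 pairs at 1 substitution, 398 differed at a distal position and 546 at a proximal position, but 0 differed at positions 1, 2 or 3. Position 4 held 96 pairs, the most of any position. No guides of the library shared all of their last 17 bases with another guide, while 413 guides shared their first 17 and 224 shared their last 16. Position 1 could therefore be compared only in pairs at 2 or 3 substitutions. Transitions, the changes between A and G or between C and T, made up 60.5% of the substitutions at 1 (571 of 944), 57.2% at 2 and 47.4% at 3. In the 4394 pairs at 4 substitutions, which lie just outside the choice, they made up 37.1%. The share was alike in distal (61.1%) and proximal (60.1%) pairs at 1 substitution.

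Most members had few near copies, and some belonged to larger groups. Linked by their pairs, the 4420 guides formed 1828 clusters, of which 1408 were plain pairs, 269 held 3 guides, 73 held 4, and 78 held 5 or more (505 guides in all). No guide had more than 8 neighbours, and 1253 guides had more than 1. In composition the members were poorer in CpG, the dinucleotide that is scarce in mammalian DNA: 33.8% contained it, against 60.1% of all guides. Their median GC content was 45%, against 50%. A was the first base of 30.7% of members and of 26.1% of all guides, and G of 25.2% and 28.1%.

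The input library held 86266754 reads (median 939 per guide) and the survivor library 16269091 (median 126). An upper limit of 3 reads was taken for a count of 0. At these depths it corresponds to 0.0348 reads per 1000000 reads (RPM) in the input and 0.184 RPM among survivors. Folds given below as "at least" rest on this limit. Levels are given below as reads, and fold changes as log2(RPM + 1) in survivors minus the same in the input, set to 0 at the median of the 76767 guides that had 30 or more input reads. The pseudocount of 1 RPM understates the change of guides with few reads.

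Guides with a near copy had fewer input reads than other guides. Their median was 798 (interval 775 to 825, quartiles 382 to 1325), against 947 for the 75213 guides without a neighbour. Under 200 input reads lay 635 members, or 14.4% (13.3 to 15.4%), against 9.89% of the whole library. Guides without a neighbour, weighted to the members' GC and CpG content, gave 10.0%. With 0 input reads there were 90 members, or 2.04% (1.64 to 2.50%), against 1.6% of the library. The part of gene copy number or read assignment in these differences was not tested.

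The shortfall was larger for closer copies. Members whose nearest neighbour was 1 substitution away had a median of 693 input reads, and 17.9% of them (16.1 to 19.7%) had under 200. Those at 2 had a median of 804.5 and 14.3% (12.4 to 16.3%). At 3 the median was 884, with 10.3% (8.81 to 12.0%) under 200, close to the library's share. For the shares under 200, the intervals at 1 and 3 did not overlap, while those at 1 and 2 did. For the medians, the interval at 1 (649 to 747) lay below that at 2 (759 to 865). The median interval at 3 (840 to 929) overlapped that at 2.

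It was also larger for guides with more neighbours. Of the 3167 guides with 1 neighbour, 10.8% had under 200 input reads, of the 771 with 2 it was 18.5%, and of the 450 with 3 to 5 it was 32.0% (27.7 to 36.5%). The 32 guides with 6 or more gave 18.8%, with an interval of 7.21 to 36.4% that is too wide to place them. The share also differed by position. The 1148 guides with a neighbour whose substitutions were all distal, and none with all proximal, had a median of 658.5 and 19% under 200 (16.8 to 21.4%). The 1523 guides with the reverse had a median of 834 and 12.7% (11 to 14.5%). Distal-only guides also had 0 reads more often, at 3.75% (2.72 to 5.01%) against 1.58% (1.01 to 2.34%).

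Within pairs, the input reads of near copies went together, and more so the closer the copies. Pearson's r of log2(RPM + 1) was 0.49 over the 944 pairs at 1 substitution (Spearman's rho 0.43), 0.43 at 2 and 0.21 at 3. In the pairs at 4 substitutions r was 0.12. These are descriptions across pairs that share 1 library, a nearly equal base composition and, in clusters, a guide. Both guides lay on the same side of the library's median in 65.1% of pairs at 1 substitution (62.0 to 68.2%), 62.8% at 2 and 58.6% at 3, and in 54.3% at 4. Without the guides of fewest reads r was lower: it was 0.32, 0.26 and 0.16 at 1, 2 and 3 substitutions over pairs whose guides both had 30 or more.

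Agreement in the input was higher for distal than for proximal substitutions. At 1 substitution r was 0.59 over 398 distal pairs and 0.38 over 546 proximal pairs. The share on the same side was 71.9% (67.2 to 76.2%) in distal pairs and 60.3% (56 to 64.4%) in proximal pairs, intervals that did not overlap. Taken by single positions, with 29 to 96 pairs each, r ran from 0.49 to 0.69 at positions 4 to 10 and from 0.29 to 0.51 at positions 11 to 20. At 2 substitutions r was 0.49 in distal and 0.33 in proximal pairs, and at 3 it was 0.26 and 0.19, where the 149 distal and 167 proximal pairs are few. With 30 or more reads for each guide, the distal and proximal values were 0.37 and 0.28 at 1 substitution, but at 2 the order turned, with 0.18 in 190 distal and 0.24 in 255 proximal pairs.

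Guides of low input tended to be paired, while the levels of most pairs stayed apart. When a guide had under 200 input reads, its partner at 1 substitution did too in 49.7% of cases, against 12.6% when the guide had 200 or more. For distal pairs the first share was 57.3% and for proximal pairs 41.9%. At 2 substitutions it was 51.2%, at 3 it was 24.6%, and at 4 it was 17.2%. Yet the median fold between the 2 guides of a pair was 1.81 at 1 substitution, 1.96 at 2 and 2.01 at 3. Over every pair of library guides, which were not matched on input, it was 2.03, or 1.02 as a log2 difference. The log2 difference at 1 substitution was 0.85 (0.80 to 0.92), so its interval lay below that value. At 2 the interval was 0.90 to 1.02, and at 3 it was 0.95 to 1.06. In the pairs at 4 substitutions the median fold was 1.91, lower than at 2 and 3, so it did not rise steadily with the number of substitutions. At 1 substitution the median fold was 1.79 in distal and 1.82 in proximal pairs.

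A guide with no input reads usually had a poorly represented partner, with exceptions. Of the 47 pairs at 1 substitution with a guide at 0 reads, 28 were distal and 19 proximal, and in 10 both guides were at 0. In the other 37 the partner had a median of 30 reads and was under 200 in 34 and under 10 in 12. The 3 with the highest partner are shown because the deposited counts gave nothing to a guide whose near copy was well covered:
C15G: tgctcatgaatgtgCcatca
G15C: tgctcatgaatgtgGcatca
T8A partner, at 0: atgggagAgataccagagag
T8A, covered: atgggagTgataccagagag
C11G: agatctgcatCccacctctg
G11C: agatctgcatGccacctctg
The C15G guide had 1662 input reads and 527 survivor reads, and the G15C guide 0 and 0. The covered T8A guide had 579 and 89 reads, and its partner 0 and 0. The C11G guide had 535 and 23, and the G11C guide 0 and 0. These 3 pairs were the only ones at 1 substitution with 0 reads for a guide and at least 300 for its partner.

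At 4-fold and with a pseudocount of 1 RPM, the near copies as a group were placed much like the rest of the library among survivors. Of the 4182 members that had 30 or more input reads, 138 were at least 4-fold above the median guide, or 3.30% (2.78 to 3.89%), against 3.04% of all guides. At least 4-fold below lay 345, or 8.25% (7.43 to 9.12%), against 8.17%. With TMM scaling, which moved the median of all guides by -0.23, these counts were 78 and 483 (1.87% and 11.5% of members, against 1.77% and 11.6% of all guides). With DESeq2 size factors they were 91 and 466 (2.18% and 11.1%, against 2.0% and 11.2%). With a pseudocount of 0.1 RPM, 21.2% of members and 18.5% of all guides were at least 4-fold below. With 1 RPM, a guide of low input could not reach the cut for down even with 0 survivor reads. A member with 342 input and 0 survivor reads stood at -1.89, though at least 16.1-fold below the median guide. Members more often had low input, so the shares at least 4-fold below leave out part of their losses. The share with no survivor reads was 12.5% (523 guides, 11.5 to 13.6%), above the library's 10.3%, but guides spread over 20 bins of input in the members' proportions gave 13.2%. In guides with 3 to 5 neighbours 19.4% were absent, where the same bins gave 21.7%.

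The fold changes of near copies agreed little. Over the 827 pairs at 1 substitution whose guides both had 30 or more input reads, r of the log2 fold change was -0.0050. At 2 substitutions it was 0.05 (866 pairs), and at 3 it was 0.05 (1180 pairs). The pairs at 4 substitutions, outside the choice, also gave 0.05 (4110 pairs), so this value is not particular to near copies. As a reference, all pairs of library guides drawn from the same 2 input bins gave r between 0.0012 and 0.0020. Both guides lay on the same side of the median in 52.0% of pairs at 1 substitution (48.5 to 55.4%), where the same bins gave 50.7%. The shares at 2 and 3 substitutions were 52.1% and 51.6%, and at 4 the share was 51.6%.

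The distance between the guides of a pair was also close to the reference. The median absolute difference of log2 fold change was 1.20 at 1 substitution (1.11 to 1.28), 1.13 at 2 and 1.19 at 3, where the same bins gave 1.21, 1.20 and 1.21. More than 4-fold apart were 27.8% of pairs at 1 substitution, 25.3% at 2 and 25.8% at 3, and 26.8%, 26.3% and 26.5% in the same bins. The intervals of distal and proximal pairs overlapped. Distal pairs at 1 substitution had r of -0.04 (332 pairs) and a median difference of 1.29 (1.16 to 1.45), and proximal pairs r of 0.02 (495 pairs) and 1.13 (1.01 to 1.23). The 149 pairs whose lower guide had 1000 or more input reads had a median difference of 1.23, and 38 of them were over 4-fold apart. The survivor reads alone had r of 0.20, 0.15 and 0.13 at 1, 2 and 3 substitutions, below the input's values in the same pairs.

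Few pairs were called past 4-fold on the same side. Of 2873 pairs at 1 to 3 substitutions that passed the minimum of 30 input reads, both guides were at least 4-fold up in 2 (0.0696%, same bins 0.121%) and at least 4-fold down in 11 (0.383%, same bins 0.665%). In 83 pairs both guides were absent from the survivors (2.89%, same bins 2.87%). With the pseudocount of 1 RPM, such a pair counts as down only where both guides had enough input. The count of pairs down therefore leaves out joint losses at low input. In 16 pairs the guides were past 4-fold in opposite directions. At 1 substitution, of 827 pairs, 0 were up (same bins 0.129%) and 3 down (0.363%, same bins 0.704%), and 7 were opposite. No same-bin share was computed for opposite pairs, so their counts have no reference here and do not show that near copies diverge. Over all guides 3.04% were at least 4-fold up and 8.17% at least 4-fold down.

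Single pairs with deep input show the range. Among the distal pairs, the A4G guide had 2207 input and 86 survivor reads, a log2 fold change of -1.66. Its partner G4A had nearly the same input, 2203 reads, and 703 survivor reads, giving 1.15. The pair thus started level and ended on opposite sides of the median. The C10T guide had 3980 and 530 reads (-0.07), and its partner T10C 2129 and 69 (-1.87). The A8T guide had 3417 and 465 reads (-0.04), and its partner T8A 2016 and 925 (1.67). In all 3 distal pairs the guides thus lay more than 2-fold apart.

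The proximal pairs with the deepest input were mixed. The C16T guide had 3728 input and 1205 survivor reads (1.18), and its partner T16C 2761 and 951 (1.27). Both guides of this pair stood above the median, though short of 4-fold. The A17G guide had 2159 and 919 reads (1.56), and its partner G17A, with 2167 and 292, stayed at the median (-0.04). The A19G guide had 2970 and 798 reads (0.92), and its partner G19A 4056 and 512 (-0.15).

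The widest splits among pairs with 1000 or more input reads per guide each had a guide on either side of the median. These pairs were picked for their difference, so the values are a description. The G13T guide had 1137 input and 13 survivor reads (-2.56), and its partner T13G 1298 and 978 (2.35). The A15C guide had 1826 input reads and 0 survivor reads, which puts it at least 85.9-fold below the median guide, and its partner C15A had 2445 and 549 (0.66). The A7C guide had 1931 and 1295 reads (2.20), and its partner C7A 1386 and 29 (-2.20). The substituted base lay at position 13, 15 or 7, so these splits include distal and proximal substitutions. The closest pairs were A20G with 1278 and 147 reads (-0.24) beside G20A with 2924 and 343 (-0.24), and C18G with 1639 and 95 (-1.13) beside G18C with 1023 and 55 (-1.14).

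Pairs in which both guides passed 4-fold in the same direction are shown next, those that were down only in part. Capitals mark the substituted bases. Both pairs that were up, and the 3 pairs that were down with the highest input in their lower guide, differed at 2 or 3 bases:
Up pair 1, guide a: tgttgtttggaaatAtCgtg
Up pair 1, guide b: tgttgtttggaaatGtAgtg
Up pair 2, guide a: taCggCtcAggctatggctg
Up pair 2, guide b: taTggTtcTggctatggctg
Down pair 1, guide a: tctgtGtaGGtgaatcacca
Down pair 1, guide b: tctgtTtaAAtgaatcacca
Down pair 2, guide a: tgGgaacccaAacaTcagga
Down pair 2, guide b: tgTgaacccaGacaGcagga
Down pair 3, guide a: gaaAtgctcCgagagAtgga
Down pair 3, guide b: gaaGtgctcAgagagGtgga
In up pair 1, guide a had 2290 input and 1459 survivor reads (2.14) and guide b 2625 and 1605 (2.08). In up pair 2, guide a had 874 and 628 reads (2.25) and guide b 396 and 482 (2.87). The substitutions of up pair 1 all lie next to the PAM and those of up pair 2 are all distal. In down pair 1, guide a had 932 input reads and 0 survivor reads, at least 43.8-fold below the median guide, and guide b 903 and 5 (-2.71). In down pair 2 both guides had 0 survivor reads, from 810 and 1054 input reads, at least 38.1-fold and 49.6-fold below. In down pair 3, guide a had 746 and 4 reads (-2.53) and guide b 853 and 14 (-2.13).

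The members with the most extreme fold changes are shown beside a near copy. They were picked as extremes, so their near copies were bound to be less extreme, and the values are a description. The following guides were the highest and lowest of all members, shown with their nearest near copy:
Highest, guide a: TgacatcatgagAgtCaatg
Its neighbour: GgacatcatgagGgtGaatg
Highest, guide b: actggcaaagcaaGaGgatc
Its neighbour: actggcaaagcaaAaTgatc
Lowest, guide a: tAttgcagaatgtcaGatgt
Its neighbour: tGttgcagaatgtcaCatgt
Lowest, guide b: ttctcttacaggtcTTagCg
Its neighbour: ttctcttacaggtcAGagTg
Highest guide a had 241 input and 670 survivor reads (3.89), and its neighbour 2373 and 185 (-0.79). Highest guide b had 42 and 211 reads (3.65), and its neighbour 63 and 0. Both started from an input well below the library's median. Lowest guide a had 2407 input reads and 1 survivor read (-4.35), and the neighbour shown 1137 and 63 (-1.12). Its other 2 neighbours, at 3 substitutions, stood at 1.53 and 2.11, on the other side of the median. Lowest guide b had 2551 and 3 reads (-4.27), and its neighbour 564 and 81 (0.08).

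In the cluster with H4c3 the input was below the library's median in all 9 guides, from 82 to 785 reads, and the fold changes scattered. The H4c3 guide had 589 input and 58 survivor reads (-0.36). The H4c6 guide, which differs by the A9T substitution of the H4c3 guide, had 243 and 0. The Gm11335 guide had 95 and 27 (0.76). Among the guides without a placement, d had 593 and 194 reads (1.13). Guide e, the one with the H2A sequence, had 414 and 518 (2.92) and was the only guide of the cluster past 4-fold up. Guide f had 484 and 92 reads (0.43), and guide g, a single substitution from it, had 283 and 16 (-0.69). Guide h had 785 and 304 reads (1.38) and guide i had 82 and 0. Without guide e the cluster ranged from -1.51 to 1.38, with 2 guides absent from the survivors.

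The vomeronasal receptor cluster was marked by low input. The Vmn1r125 guide had 7 input and 0 survivor reads, the Vmn1r128 guide 0 and 0, and the Vmn1r113 guide 17 and 0. The Vmn1r169 guide had 90 and 135 reads (2.60). Guide e, without a placement, had 764 and 150 (0.47), so the placed guides were those at the low end of the cluster's input. Another pair matching these receptors differs at 3 distal positions. Its guide with 410 and 34 reads (-0.48) matched 3 windows, those of Vmn1r117, Vmn1r241 and Vmn1r251. Its guide with 4446 and 860 reads (0.45) matched 1, that of Vmn1r125.

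Placed guides with more than 1 matched site had lower input than those with 1. The exact match placed 637 guides of the library and 46 members. These 46 had a median of 244 input reads and 47.8% under 200 (32.9 to 63.1%). All members had 798 and 14.4%, so in input the placed members do not stand for the rest. The 13 members found at 2 or more sites had a median of 90 input reads, from 0 to 410, and 11 of them were under 200 (84.6%, 54.6 to 98.1%). The 33 members at 1 site had a median of 562, with 33.3% under 200 (18 to 51.8%). Over all library guides the corresponding medians were 232 (39 guides) and 946.5 (598 guides), with 48.7% and 14.4% under 200. Whether input falls further with more sites cannot be told from so few guides. The 23 library guides at 3 or more sites, which are among the 39, had a median of 410 (197 to 685). Of these 23, 34.8% (16.4 to 57.3%) were under 200. The intervals of the 39, 90 to 421 and 32.4 to 65.2%, overlapped these. Of the 9 members at 3 or more sites 77.8% were under 200. The windows cover only gene starts, so a guide at 1 site here can have others elsewhere, and placed guides were looked at after their values had been seen.

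Both guides were placed in 15 pairs, 6 of them at 1 substitution. The pair for Mthfs and Mthfsl, genes of the enzyme that converts 5-formyltetrahydrofolate and of its copy, and the pair for Scgb1b24 and Scgb1b26-ps, of the secretoglobin family, had the deepest input and are shown for that; capitals mark the substitution:
Mthfs guide: cttctcgCaccttctgcgtg
Mthfsl guide: cttctcgTaccttctgcgtg
Scgb1b24 guide: tggtgctctcttgctgctcA
Scgb1b26-ps guide: tggtgctctcttgctgctcG
The Mthfs guide matched chr9:89211302-89211321 on the minus strand and the Mthfsl guide chr9:88719649-88719668 on the plus strand, both before the gene's start. The Mthfs guide had 1649 input and 242 survivor reads (0.08), and the Mthfsl guide 2789 and 926 (1.22). The Scgb1b24 guide matched chr7:33743810-33743829 and the Scgb1b26-ps guide chr7:33958816-33958835, both on the plus strand and after the start. The Scgb1b24 guide had 3148 and 318 reads (-0.45), and the Scgb1b26-ps guide 1180 and 398 (1.21). In both pairs the ratio of survivors to input differed by more than 2-fold between the guides. For the Scgb1b pair this came with unequal input, since the survivor reads of its guides were close.

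Other families showed the same scatter. The 7 guides of the cluster that holds Krtap19-1, a keratin-associated protein gene of hair, had 106 to 1824 input reads and fold changes from -2.88 to 1.95. The Krtap19-1 guide itself had 394 and 198 reads (1.66), and the Krtap19-2 guide 1029 and 119 (-0.22). The 4 guides of the cluster with Defa41, an alpha-defensin gene of intestinal Paneth cells, had 67 to 1900 input reads. Of these 4, 2 were absent from the survivors and the highest stood at 2.82. The guides matching the beta-defensin genes Defb3 and Defb8 had 562 and 20 reads (-1.33) and 1003 and 223 (0.64). In the cluster of 10 guides with H2ac13, a histone H2A gene, the input ran from 52 to 1323 reads, 3 guides were absent and none was past 4-fold up.

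The largest cluster, of 17 guides, could not be named from these windows. It is shown by its guides with the most neighbours, with capitals at the 12 positions that vary in the cluster:
Cluster guide a: gCtTACaGaTAgcTaCATaG
Cluster guide b: gCtTACaAaTGgcAaCGTaG
Cluster guide c: gCtTGCaAaTAgcAaCATaG
Cluster guide d: gCtTGCaGaCAgcCaCATaG
Guide a, with 7 neighbours, had 364 input and 69 survivor reads (0.42). Guides b, c and d, with 6 each, had 529 and 16 (-1.43), 938 and 52 (-1.08), and 1492 and 70 (-1.37). Of the 17 guides 13 lay below the median guide, with a range of -1.99 to 1.80. The next cluster went the other way: of its 12 guides 2 lay below the median, with a range of -1.28 to 2.38. The cluster of 11 guides had 1 to 3031 input reads, and 4 of its guides had under 200.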

How the data were processed

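Reads per guide were deposited by the authors as raw counts for 79633 spacers of 20 bases in 2 libraries, 1 per condition, per the file headers. For the tool that assigned reads to guides, and its mismatch setting, "not given in the sources used here" applies. What the word "combined" in the input's name stands for is not defined.

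From these counts, pairs of guides with up to 3 substitutions were listed in Python 3.11.15 by comparing all spacers. Reads were scaled to RPM of the library total. Fold changes used a pseudocount of 1 RPM and guides with at least 30 input reads, centred on their median. The reference for pairs was every pair of library guides from the same 2 of 20 input bins, enumerated on a log2 grid of 0.01, in place of random draws. Intervals are exact (Clopper-Pearson for shares, order statistics for medians). Scripts were tested on simulated data. Scaling with edgeR 4.0.16 (TMM) and DESeq2 1.42.0 (size factors) was tried as an alternative; no count test was run, for lack of replicates.

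Named guides followed a rule: the deepest pairs at 1 substitution, the furthest and closest of the pairs with at least 1000 input reads, pairs past 4-fold together, pairs with a guide at 0, the extreme members, and the guides of the largest cluster with the most neighbours. A tie there was shown in full. Placed guides, family clusters and first-base pairs at 2 or 3 substitutions were chosen after their values were seen. The members and lists were chosen with earlier results of these data known. Sequences are those of the deposited counts, and placements use RefSeq windows of 32851 gene starts.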

Additional observations from a re-analysis of the deposited data

Results flagged for a closer look

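Survivor reads were present for members with 0 input reads. The guide atgGaCactcaggacacagg had 12 survivor reads (0.738 RPM) and 0 in the input, where the limit taken for a count of 0 is 0.0348 RPM. Its 3 neighbours at 1 or 2 substitutions had 0, 7 and 13 input reads and no survivor reads. The guide gtacttcctggGgtcaCtag had 8 survivor reads (0.492 RPM) and 0 in the input, and its neighbour at 2 substitutions, gtacttcctggAgtcaTtag, had 216 input and 253 survivor reads. Capitals mark the bases that differ from a neighbour. The guide tctggacgcggCaagcaggg had 1 survivor read and 0 in the input.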

How the results depend on the processing

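Of 181 recomputed values, 158 stayed within the spread set for them and 23 moved. All 45 recomputed r of fold change within pairs stayed within 0.1 of their main value, but values this near 0 can change sign: at 3 substitutions 0.05 became -0.02 at a minimum of 1000 reads, in distal pairs at 1 substitution -0.04 became 0.02 with 0.1 RPM, and in proximal pairs 0.02 became -0.04 at 300 reads. At most 1 substitution left 1725 members. Over pairs whose guides both had 30 or more input reads, the share of pairs on the same side of the input median was 61.8% at 1 substitution, 58.4% at 2 and 66.9% in distal pairs at 1. With 1 pair per cluster it was 58.2% at 2 substitutions. The share of members absent from survivors was 16.8% without an input minimum (all guides 13.3%), 9.63% at 100 reads (8.44%) and 5.63% at 300 (5.29%). Members at least 4-fold up numbered 80 at a minimum of 300 reads (2.26%, all guides 2.19%), 209 and 21 with pseudocounts of 0.1 and 5 RPM (5.0% and 0.502%, all guides 4.41% and 0.569%), 78 with TMM and 91 with DESeq2 size factors. Those at least 4-fold down numbered 885 and 8 with these pseudocounts (21.2% and 0.191%, all guides 18.5% and 0.203%), so with 0.1 RPM the share was higher in members. Same-side shares of fold change at 1 substitution were 48.2% at a minimum of 300 reads and 45.6% at 1000, and 38.3% in distal pairs at 1000. The cause was not tested, beyond that higher minimums keep fewer guides. No paired analysis was possible because there is only 1 library per condition, so no replicate could be left out either. The planned comparison of pairs differing only at position 1 could not be run, since there are none; pairs at 2 or 3 substitutions were used instead, chosen after seeing the data. The depth of the survivor library, with a median of 126 reads per guide, limits what can be seen of losses.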

Other observations

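Pairs at 2 or 3 substitutions that differ at the first base allow a comparison of first bases in otherwise near-identical guides. In 99 such pairs with G against another base and 30 or more input reads for each, the guide starting with G had the lower log2 fold change in 64 (64.6%, 54.4 to 74.0%), with a median difference of -0.64 (-0.96 to -0.28). Its log2 input was also lower, by a median difference of -0.40. Against A the G guide was lower in 46 of 66 pairs (median -0.78), against T in 9 of 17 (median -0.11, -1.86 to 0.78) and against C in 9 of 16 (median -0.08, -0.51 to 0.44). Of these 3 bases, the median was furthest from 0 against A, and whether the bases differ was not tested. In 19 pairs of A against T the A guide was lower in 13, with a median difference as large (-0.79, -1.25 to 0.13). Over the other settings tried the median for G against all others lay between -0.73 and -0.34. The pairs also differ at 1 or 2 further bases, and a first-base difference was already known from these libraries, so the pairs give no independent support.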
